A study of Mus musculus with 9 samples.

Results

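The cytosolic ribosomal proteins build the ribosome of the cytoplasm. Their genes were taken as every gene whose single symbol in the array's probe annotation was Rpl or Rps followed by a digit, or was Rplp0, Rplp1, Rplp2 or Rpsa. Pseudogene symbols, the ribosomal S6 kinases and Rps19bp1 were left out. The rule found 62 genes among the 19938 genes measured, and it used symbols only, not measured values. Of these, 54 encode the common ribosomal proteins, 33 of the large subunit and 21 of the small, and 8 are paralogs or tissue variants, namely Rpl3l, Rpl7l1, Rpl10l, Rpl32l, Rpl39l, Rps27l, Rps4l and Rps23rg1. Another 23 of the 77 common proteins were not among the members. For 16 of them, including Rpl3, Rpl11, Rps24 and Rps27, every probe set carried more than 1 symbol, and the other 7 were not analysed here.

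RNA of mouse bone marrow was hybridised to Affymetrix whole-transcript arrays, in 9 samples of 15 mice. All were labelled as strain C57BL6 and all marrow came from the femur. The first group, wild type whole marrow, held 3 arrays of 1 mouse each. The second, wild type lineage-negative marrow, held 3 arrays that were each a pool of 3 mice, after a magnetic kit had removed cells bearing markers of mature blood cells. The third, ERG leukemia, held 3 arrays of 1 mouse each, from mice that carried an ERG transgene and were killed once ill with a myeloid leukemia. The ERG protein, an ETS factor that binds DNA at GGAA letters, is needed for blood stem cells to persist. The wild type groups carried no transgene. The promoter and species of the transgene, the number of transgenic lines and the ages were not stated in the labels. In these bulk samples, fewer cells of a type and less RNA per cell cannot be told apart.

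A ribosome joins a small subunit, which reads the messenger RNA, to a large subunit, which forms the peptide bond. Each subunit is a scaffold of ribosomal RNA covered by single copies of most of these proteins, so cells make them in near equal numbers. Their messenger RNAs are among the most abundant of any growing cell, and their translation is governed through the mTOR pathway and the RNA-binding protein Larp1. In the marrow, loss of 1 copy of several of these genes gives Diamond-Blackfan anemia, a failure of red cell production. Each gene also has processed pseudogenes, copies of its messenger RNA in the genome, which an array probe may not tell from the gene itself.

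Since ERG belongs to the ETS family, the promoters of the members were searched for a 7-letter ETS motif. RefSeq's promoter windows on GRCm38.p6 covered 50 of the 62 members in 59 windows of 300 bases, from 250 before the start of transcription to 50 after it. The letters CCGGAAG, read on either strand, were in 33.9% of the members' windows and in 8.86% of all 32851 windows. The letters CACGTG, an E-box of the kind MYC and MAX bind, were in 11.9% against 7.15%. The letters AGATAA, of the kind GATA factors bind, were in 10.2% against 11.2%, and the pyrimidine run CTTTCC in 45.8% against 26.6%. The reverse complement of CTTTCC holds GGAA, which the ETS motif also holds. A match says only that the letters are there. The 120 bases before the start follow for 5 members with the ETS letters, in capitals, 5′ to 3′ along the gene's strand. Rps21, Rps3a1, Rps10 and Rpl19 are shown because, as deposited, their signal was called higher in the leukemias than in whole marrow. Rps6 is shown because its signal did not pass the test in any comparison.
Rps21: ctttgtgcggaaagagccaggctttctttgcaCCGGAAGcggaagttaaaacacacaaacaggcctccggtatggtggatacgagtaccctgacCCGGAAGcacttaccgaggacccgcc
Rps3a1: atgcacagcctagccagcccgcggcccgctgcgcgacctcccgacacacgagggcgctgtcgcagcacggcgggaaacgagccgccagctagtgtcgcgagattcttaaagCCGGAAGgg
Rps10: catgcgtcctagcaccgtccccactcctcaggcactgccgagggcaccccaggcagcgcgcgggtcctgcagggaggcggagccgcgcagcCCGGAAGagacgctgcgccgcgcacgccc
Rpl19: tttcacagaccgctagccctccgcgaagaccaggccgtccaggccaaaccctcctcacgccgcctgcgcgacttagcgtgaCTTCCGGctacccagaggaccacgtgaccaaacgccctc
Rps6: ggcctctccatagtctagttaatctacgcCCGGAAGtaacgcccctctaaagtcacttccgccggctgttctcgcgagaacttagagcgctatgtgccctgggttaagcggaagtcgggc
The stretch of Rps21 lies at chr2:180257259-180257378 on the plus strand and holds the motif at 2 places. That of Rps3a1 lies at chr3:86142669-86142788 on the minus strand, with the motif's first base at position -9 from the start. That of Rps10 lies at chr17:27635245-27635364 on the minus strand, with the motif at -29. That of Rpl19 lies at chr11:98026590-98026709 on the plus strand and holds the reverse complement, CTTCCGG, at -39. That of Rps6 lies at chr4:86857368-86857487 on the minus strand, with the motif at -91.

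The arrays had median intensities of 32.3 to 34.4, on a scale whose median over all probe sets was 33.4, or 5.06 as log2. Mouse Erg itself had 1 probe set, at a mean log2 intensity of 7.29 in whole marrow, 6.80 in lineage-negative marrow and 6.37 in the leukemias; as the transgene's species is not given, this does not check the labels. The summed intensity of 9 mature neutrophil markers, such as Ltf, Camp and S100a8, ran from 33221 to 39045 in whole marrow, from 648 to 1939 in lineage-negative marrow and from 14203 to 20760 in the leukemias. The 7 B cell markers summed to 961 to 4092 in whole marrow, 263 to 401 in lineage-negative marrow and 332 to 513 in the leukemias. The 6 stem and progenitor markers summed to 1278 to 1614, 2764 to 3824 and 1549 to 2555 in the same order, and the 6 erythroid markers to 917 to 2734, 2605 to 3606 and 2045 to 4870. The 7 T and NK cell markers summed to 479 to 565, 219 to 301 and 176 to 251. Mean signals below the median intensity were found for 6 of the B cell markers in lineage-negative marrow and 3 in the leukemias, but for just 1 neutrophil marker, Mmp9, and that in lineage-negative marrow. Of the erythroid markers 3, Klf1, Epor and Gata1, were called higher than in whole marrow both in the leukemias and in lineage-negative marrow, and the list's median differences were 1.57 and 1.30. The stem and progenitor markers did not move together in the leukemias. Against whole marrow Gata2 was called higher and Cd34 and Sox4 lower, with a median difference of -0.28. Against lineage-negative marrow Kit, Cd34, Sox4 and Myb were called lower and none higher, with a median of -1.46. The groups therefore differed in mature neutrophil, B cell, T cell, erythroid and progenitor signal as well as in the values below, and the part of these cells in those values was not tested.

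Nearly all members gave a strong signal. Of the 62, 58 had a mean above the median intensity of all probe sets, and the 4 below it were the variants Rpl3l, Rpl39l, Rpl10l and Rps23rg1. Mean log2 intensities ran from 4.20 to 12.31, but probe sets differ in how they bind, so the signal of one gene was not ranked against another as a level of RNA. Over the members, the median log2 intensity was 10.12, 9.96 and 10.09 on the whole marrow arrays, 10.43, 10.44 and 10.53 on the lineage-negative arrays and 10.22, 10.50 and 10.43 on the leukemia arrays. The 3 whole marrow arrays were the lowest, and the leukemia arrays overlapped the lineage-negative ones. The median over all genes stayed between 5.06 and 5.13 on all 9 arrays. The joint normalization of the arrays tends to hold that median steady, so it does not set the members apart. Over all genes above the median intensity, the median log2 difference from whole marrow was 0.22 in lineage-negative marrow and 0.10 in the leukemias. Taken gene by gene against the whole marrow mean, the members' median shift was 0.30, 0.37 and 0.36 on the lineage-negative arrays and 0.19, 0.32 and 0.26 on the leukemia arrays, on the log2 scale. Leukemia 1 held the lowest of the 3 leukemia values for 34 of the 62 members, and leukemia 2 the highest for 30.

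**Figure D1:**
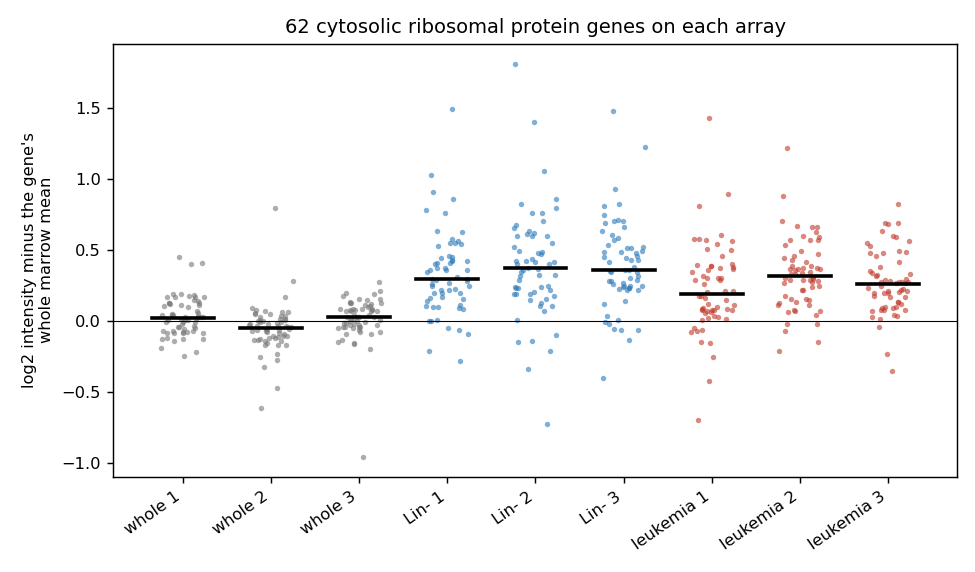
Each point is 1 of 62 cytosolic ribosomal protein genes on 1 of 9 arrays, as its log2 intensity minus the mean of the 3 whole marrow arrays, and the black bar is the median over genes. The medians lie near 0 in whole marrow, at 0.30 to 0.37 in lineage-negative (Lin-) marrow and at 0.19 to 0.32 in the leukemias.

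Ribosomal protein genes had higher signal in the leukemias than in whole marrow. With limma over all 19938 genes and a threshold of 0.05 on the Benjamini-Hochberg adjusted p, 21 of the 62 members were higher and none was lower. That was 33.9% of the members, against 14.6% of all genes and 27.2% of the genes above the median intensity called higher. Of all genes, 9.93% were called lower and 24.5% either way. At an unadjusted p under 0.05, 32 members were higher and 1 was lower. The median difference was 0.25 on the log2 scale, a 1.19-fold level, against -0.02 over all genes and 0.10 over the 10285 genes above the median intensity. A difference above 0 was found for 59 members as deposited, for 54 after centring each array on its 75th percentile and for 48 after cyclic loess. The call count moved more: 7 members were called higher after that centring, beside 11.1% of all genes, and 6 after cyclic loess, beside 10.9%. Under both scalings the members' share was near that of all genes but below that of the genes above the median intensity. Of those 10285 genes, 2171 were called higher after centring and 2007 after loess. The members' median was then 0.17 against -0.10 over all genes after centring, and 0.11 against -0.01 after loess. Over all genes, the share of calls that were higher went from 59.4% to 47.7% and 47.2%. The 3 leukemia arrays all lay above the 3 whole marrow arrays for 33 members, beside 19.4% of all genes, and all below for 1, beside 17.7%.

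As deposited, both subunits took part. Of the 33 large subunit genes, 14 were called higher, with a median difference of 0.26. Of the 21 small subunit genes, 6 were called higher, with a median of 0.29. Beside these stand 14.6% of all genes and 27.2% of the genes above the median intensity. After 75th percentile centring 4 large and 2 small subunit genes were called higher, beside 11.1% of all genes. After cyclic loess 5 and 1 were, beside 10.9%. All 54 common members lay above 0 as deposited, and 50 and 44 did so after 75th percentile centring and cyclic loess. Of the 8 variants, only Rps27l was called, and 3 lay below 0. The 5 members with the largest called differences were Rpl13, Rpl8, Rps13, Rps21 and Rps27l. The smallest called differences were those of Rpl19, at 0.26 ± 0.07 (SE), and Rpl23a, at 0.27 ± 0.08, and both calls were lost under both other scalings.

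Rpl13, a large subunit protein, stood at log2 intensities of 8.90, 9.04 and 9.17 in whole marrow and at 9.33, 9.92 and 9.73 in the leukemias. The groups did not overlap, and leukemia 1 lay nearest to whole marrow. The difference was 0.62 ± 0.15 (SE), 1.54-fold, with an adjusted p of 0.0193, and the call was lost under both other scalings and without whole marrow 1, leukemia 2 or leukemia 3. Its 9 probe sets all gave a positive difference, from 0.53 to 0.65. Rpl8, a large subunit protein, stood at 10.07, 9.75 and 9.88 in whole marrow and at 10.48, 10.56 and 10.49 in the leukemias. The leukemias lay close together and above every whole marrow array, by 0.61 ± 0.09, 1.53-fold (adjusted p 0.00204).

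Rps13, which sits at the face of the small subunit that meets the large one, stood at 9.09, 8.81 and 8.84 in whole marrow and at 9.46, 9.58 and 9.48 in the leukemias. The groups again did not overlap, and the difference was 0.59 ± 0.09, 1.51-fold (adjusted p 0.00229). The small subunit protein Rps21, whose upstream stretch is printed above, stood at 8.51, 8.64 and 8.74 and at 9.00, 9.20 and 9.32 in the same groups. It was higher by 0.54 ± 0.11 (adjusted p 0.00815), and its 2 probe sets gave 0.54 and 0.75. Rps27l, a paralog of Rps27 whose gene p53 induces, stood at 9.38, 9.45 and 9.32 in whole marrow and at 9.99, 9.66 and 10.07 in the leukemias. Leukemia 2 was the nearest to whole marrow, without overlap, and the difference was 0.52 ± 0.11 (adjusted p 0.0106). The calls of Rps21 and Rps27l were lost under cyclic loess. Only Rpl8, Rps13, Rpl24 and Rpl27 were called in this comparison under every alternative run, and the large subunit gene Rpl23 was called under both other scalings but not under every alternative.

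**Figure D2:**
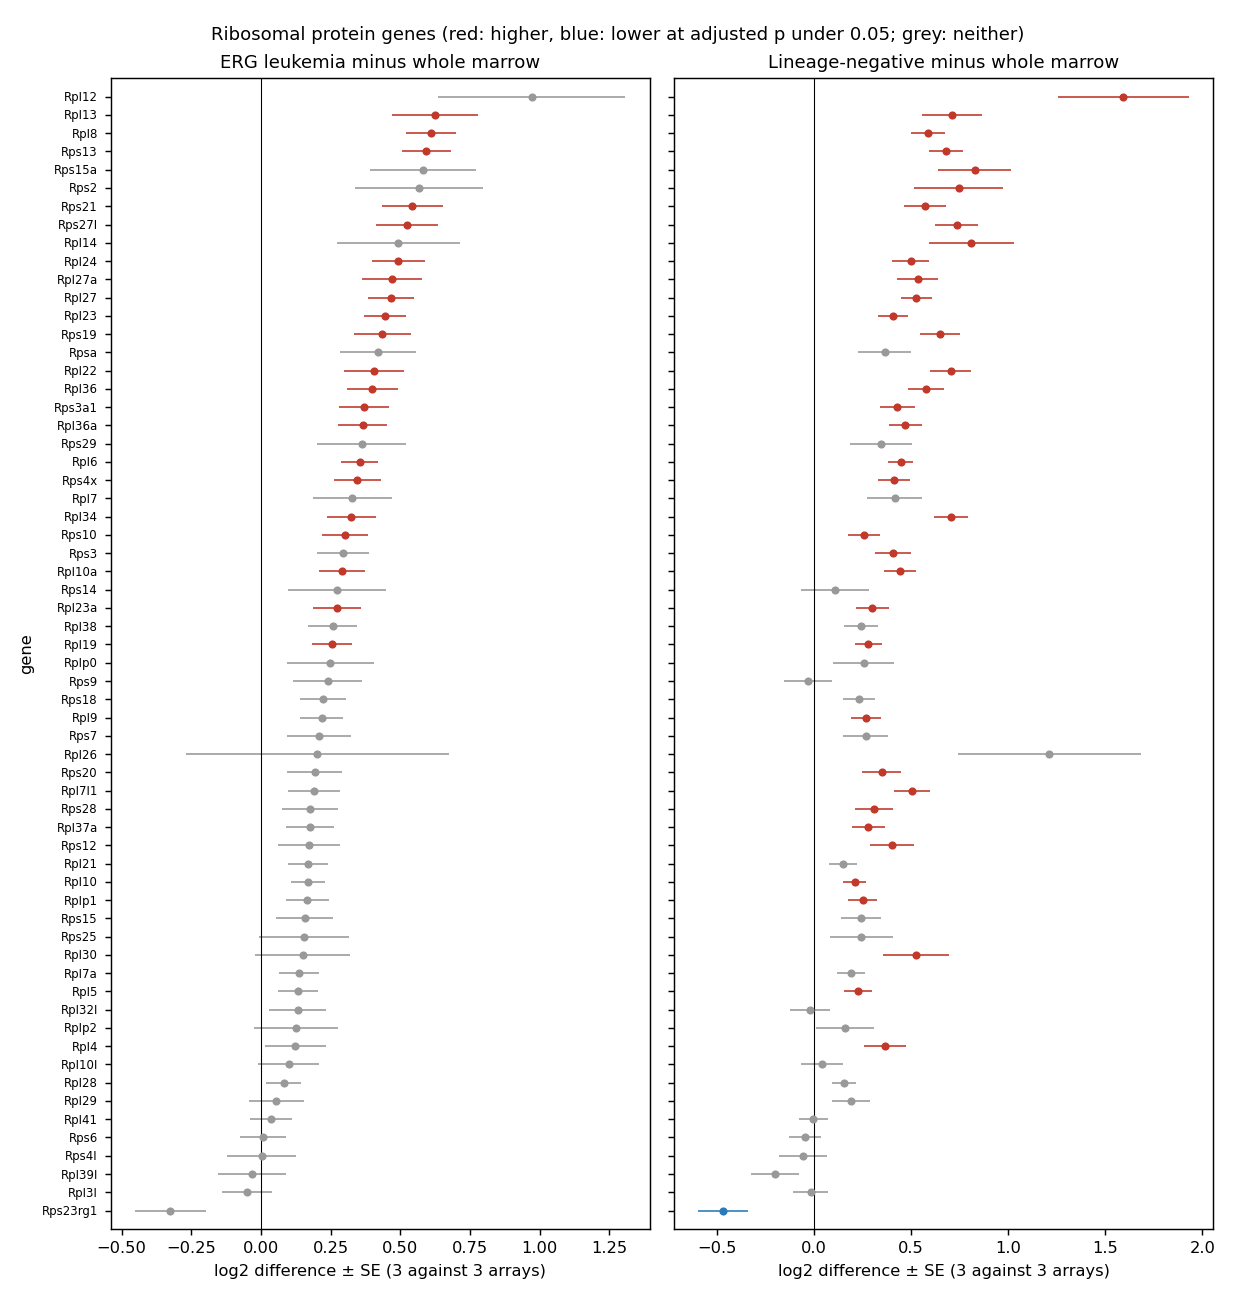
Each row is 1 of the 62 genes, with its log2 difference ± SE in the leukemias (left) and in lineage-negative marrow (right), each against whole marrow, 3 arrays against 3. Red marks genes called higher (21 on the left, 37 on the right), blue the 1 gene called lower and grey the others; as deposited, 59 genes lie above 0 on the left, and 54 and 48 do so under the other scalings.

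The largest difference did not pass the test. Rpl12, at the base of the stalk that recruits translation factors, stood at 6.85, 5.83 and 6.64 in whole marrow, at 7.93, 8.25 and 7.92 in lineage-negative marrow and at 7.87, 7.66 and 6.71 in the leukemias. Leukemia 3 fell within the whole marrow range, while the other leukemias lay near the lineage-negative arrays. The leukemia minus whole marrow difference was 0.97 ± 0.34 (adjusted p 0.069), and it was called without leukemia 3 and when only bright genes were tested. Rps15a, of the small subunit, differed by 0.58 (adjusted p 0.0548), with leukemias at 9.67, 9.57 and 9.09 against 8.91, 8.54 and 9.14. Leukemia 3 again lay within the whole marrow range. Rps2, of the small subunit, stood at 9.86, 10.22 and 9.74 in whole marrow and at 10.83, 9.92 and 10.76 in the leukemias, so that leukemia 2 alone overlapped whole marrow. Its difference was 0.57 ± 0.23 (adjusted p 0.115), and its 3 probe sets ranged from 0.16 to 1.07.

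Several members are tied to blood disease. Rps19, the gene most often mutated in Diamond-Blackfan anemia, stood at 7.53, 7.58 and 7.74 in whole marrow, 8.07, 8.41 and 8.32 in lineage-negative marrow and 8.07, 7.98 and 8.10 in the leukemias. Whole marrow lay below every other array, and the leukemias were higher than it by 0.44 ± 0.10 (adjusted p 0.0153), a call lost under both other scalings and without whole marrow 1. Of the 22 genes listed for this anemia, 12 were measured, and 4 were called higher, Rps10, Rps19, Rpl8 and Rpl27, with none lower and a median of 0.26, beside 33.9% of all members and 14.6% of all genes called higher. Under either other scaling 2 of the 12 were called, beside 7 and 6 of the 62 members and 11.1% and 10.9% of all genes. Rpl22, which developing lymphocytes need, stood at 6.98, 7.0 and 6.87 in whole marrow and at 7.52, 7.24 and 7.30 in the leukemias, a difference of 0.41 ± 0.11 (adjusted p 0.0245). The groups did not overlap, and its call was lost under 6 of 16 alternatives, both other scalings among them.

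Other members of this kind did not pass. Rps14, lost in a form of myelodysplastic syndrome, stood at 10.19, 9.78 and 10.18 in whole marrow, 10.05, 10.12 and 10.30 in lineage-negative marrow and 9.97, 10.62 and 10.38 in the leukemias. The 3 groups overlapped, with leukemia 1 below the other leukemias, and the leukemia minus whole marrow difference was 0.27 ± 0.18 (adjusted p 0.324). Rpsa, also known as the laminin receptor and mutated in congenital absence of the spleen, stood at 9.82, 10.08 and 10.14 in whole marrow and at 10.22, 10.60 and 10.47 in the leukemias. Its groups did not overlap, but the difference of 0.42 ± 0.14 had an adjusted p of 0.0553, and it was called under 6 of 16 alternatives, the mean of all probe sets and the dimmest probe set among them. Rpl5, which binds Mdm2 together with Rpl11 and a ribosomal RNA, stood at 11.32, 11.23 and 11.39 and at 11.39, 11.47 and 11.48 in the same groups, a difference of 0.13 ± 0.07 (adjusted p 0.231). The leukemias overlapped whole marrow at its upper end. Rpl10, mutated in some T cell leukemias, differed by 0.17 ± 0.06 (adjusted p 0.079), with whole marrow at 11.89 to 11.93 and the leukemias at 12.06 to 12.08. Its arrays did not overlap.

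The stalk proteins, which draw elongation factors to the ribosome, did not pass the test between leukemia and whole marrow. Rplp0 stood at 10.96, 10.70 and 11.12 in whole marrow and at 11.01, 11.50 and 11.02 in the leukemias, 0.25 ± 0.15 apart (adjusted p 0.308). Rplp1 differed by 0.17 ± 0.08 (adjusted p 0.163), and Rplp2 by 0.13 ± 0.15 (adjusted p 0.625). Arrays overlapped for Rplp0 and Rplp2 and not for Rplp1, whose leukemias stood at 11.31, 11.53 and 11.37 against 11.28, 11.17 and 11.26. In lineage-negative marrow Rplp1 was called higher than in whole marrow, by 0.25 (adjusted p 0.0322), a call lost under 10 of 17 alternatives, both other scalings among them, while Rplp0, at 0.26, and Rplp2, at 0.16, were not called.

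Rps6, the small subunit protein that S6 kinases phosphorylate, had the highest mean signal of all members and showed almost none of this shift. It stood at 12.45, 12.20 and 12.31 in whole marrow, at 12.33, 12.22 and 12.26 in lineage-negative marrow and at 12.40, 12.30 and 12.28 in the leukemias. All 3 groups overlapped, and the leukemia minus whole marrow difference was 0.01 ± 0.08 (adjusted p 0.969), with a 95% interval of -0.18 to 0.19. Rpl28, next in signal, differed by 0.08 ± 0.06 and Rpl41, a very short basic protein, by 0.04 ± 0.08, and neither was called. Bright probe sets can saturate, so a small difference there does not show that the RNA was equal. Over the 58 members above the median intensity, Spearman's rho between mean signal and difference was -0.32 for leukemia minus whole marrow and -0.45 for lineage-negative minus whole marrow, as a description over genes that share the same arrays. The dimmest 20 of these had a median leukemia minus whole marrow difference of 0.39 and 9 calls, and the brightest 19 a median of 0.21 and 5 calls.

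**Figure D3:**
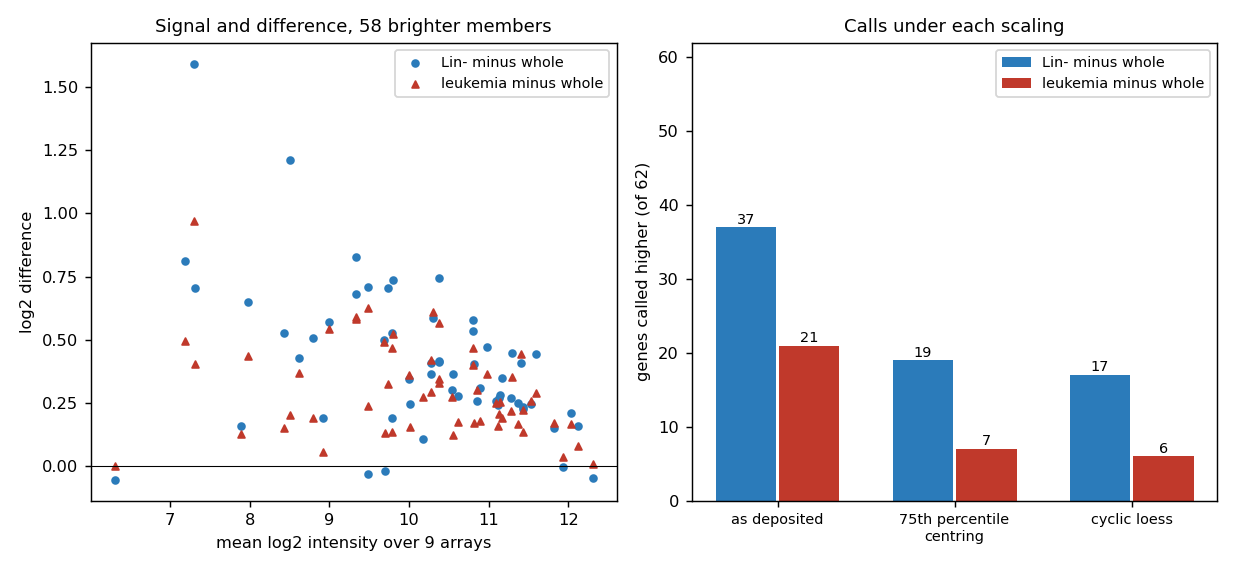
Left, the log2 difference against whole marrow (vertical axis) of 58 members with a mean above the median intensity, by mean log2 intensity over 9 arrays, with the largest differences at low signal. Right, the number of the 62 genes called higher at adjusted p under 0.05 as deposited (37 and 21), after 75th percentile centring (19 and 7) and after cyclic loess (17 and 6), for lineage-negative (Lin-) marrow and leukemia.

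Wild type lineage-negative marrow, which is rich in progenitors, also had higher ribosomal protein signal than whole marrow. Here 37 members were called higher, 59.7% against 21.7% of all genes and 39% of the genes above the median intensity. A further 1 was called lower, against 13% of all genes, with 34.7% of all genes called either way. The median difference was 0.35, 1.27-fold, against -0.03 over all genes and 0.22 over the genes above the median intensity. After 75th percentile centring 19 were called, beside 16.8% of all genes, and after cyclic loess 17, beside 16.3%. Of the 10285 genes above the median intensity, 3192 were called higher after centring and 2816 after loess, shares close to those of the members. That centring moved the median of all genes by -0.12, to -0.16, and the members' median to 0.22. After cyclic loess the median was -0.0031 over all genes and 0.16 over the members. Over all genes, the share of calls that were higher went from 62.6% to 50.3% and 51.2%. Without lineage-negative 2 or lineage-negative 3, 23 members were called higher in either case. The 3 lineage-negative arrays lay above the 3 whole marrow arrays for 48 members, beside 26.6% of all genes. This comparison and the first share the whole marrow arrays, so their values are set side by side and not counted as independent.

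Of the large subunit genes 23 of 33 were called higher here as deposited, with a median of 0.41. Of the small subunit genes 12 of 21 were, with a median of 0.35. Beside these stand 21.7% of all genes and 39% of the genes above the median intensity. After 75th percentile centring 12 large and 5 small subunit genes were called higher, beside 16.8% of all genes, and after cyclic loess 12 and 4, beside 16.3%. Of the 10285 genes above the median intensity, 3192 and 2816 were. Rpl12 led with 1.59 ± 0.34, 3.02-fold (adjusted p 0.0059), and its 3 lineage-negative arrays all lay above whole marrow. Rps15a followed with 0.83 ± 0.19 (adjusted p 0.00861), at 9.77, 9.52 and 9.79 against 8.91, 8.54 and 9.14. The large subunit gene Rpl14 was higher by 0.81 ± 0.22 (adjusted p 0.0197), at 7.62, 7.81 and 7.28 against 7.21, 6.29 and 6.77. This call was lost under cyclic loess, without lineage-negative 1 or lineage-negative 2, and with the wild type replicate number as a block. Arrays of the groups did not overlap for any of these, and the lowest lineage-negative value of Rpl14 lay just above the highest of whole marrow. Rps2, at 10.70, 10.70 and 10.65, was higher by 0.75 ± 0.23 (adjusted p 0.0341), and this call was lost under 7 alternatives. Rps27l was higher by 0.73 ± 0.11 (adjusted p 0.00116) and Rps13 by 0.68 ± 0.09 (adjusted p 0.000512). Under every alternative run, 13 members stayed called, among them Rpl8, Rpl12, Rpl22, Rpl34, Rps13, Rps15a, Rps19 and Rps27l. Of the 12 measured Diamond-Blackfan genes 9 were called higher, beside 59.7% of all members and 21.7% of all genes. Under either other scaling 4 of the 12 were called, beside 19 and 17 of the 62 members and 16.8% and 16.3% of all genes. Rps19 differed by 0.65 ± 0.10 (adjusted p 0.00131). Rps6 differed by -0.05 and Rpl41 by 0.00, and neither was called.

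The leukemias and lineage-negative marrow differed little in these genes. No member was called higher and 1 was called lower, 1.61% of the members, beside 2.95% of all genes called higher, 5.74% called lower and 8.69% called either way. At an unadjusted p under 0.05, none was higher and 3 were lower. The median difference was -0.07, against 0.01 over all genes and -0.09 over the genes above the median intensity, and 46 members lay below 0 as deposited. The leukemia arrays all lay below the lineage-negative arrays for 10 members, beside 16.3% of all genes, and all above for none, beside 11.6%. For 56 of the 62 members the 95% interval stayed within 1.5-fold in either direction. For the other 6 it reached further down, and for none further up. A missed threshold does not show that levels were equal, and the intervals bound each difference only to that extent.

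The gene called lower was Rpl34, of the large subunit, at 9.69, 9.78 and 9.67 in the leukemias, 9.95, 10.25 and 10.08 in lineage-negative marrow and 9.44, 9.38 and 9.35 in whole marrow. The leukemias lay between both wild type groups and overlapped neither. Leukemia minus lineage-negative was -0.38 ± 0.09, 0.768-fold (adjusted p 0.0315), a call lost under 7 of 16 alternatives, 75th percentile centring among them. Leukemia minus whole marrow was 0.32 ± 0.09 (adjusted p 0.0258), a call lost under 8 of 16 alternatives. The variant Rpl7l1, a nucleolar relative of Rpl7 that acts in ribosome assembly, showed a like order without passing, at 8.87, 8.64 and 8.77 in the leukemias against 9.12, 9.19 and 8.92 in lineage-negative marrow, -0.31 ± 0.09 (adjusted p 0.074). Rps9, of the small subunit, lay furthest above lineage-negative marrow without passing, by 0.27 ± 0.12 (adjusted p 0.241), and its 2 probe sets disagreed in direction, at -0.20 and 0.27.

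Within groups, most members varied little. The median SD over 3 arrays was 0.12 in whole marrow, 0.09 in the lineage-negative pools and 0.12 in the leukemias. It was 0.17, 0.14 and 0.19 over all genes above the median intensity, and 0.13, 0.10 and 0.13 over all genes, close to the members. A few members did not keep to this. Rpl26, which also binds p53 messenger RNA, stood at 8.20, 8.83 and 7.08 in whole marrow, 9.06, 9.43 and 9.26 in lineage-negative marrow and 7.34, 8.70 and 8.67 in the leukemias. Leukemia 1 and whole marrow 3 stood well below the rest of their groups, the SDs were 0.89 in whole marrow and 0.77 in the leukemias, and no comparison passed: leukemia minus lineage-negative was -1.01 ± 0.47 (adjusted p 0.253), and lineage-negative minus whole marrow 1.21 ± 0.47 (adjusted p 0.0799). Next in SD among the leukemias came Rpl12, at 0.62, and Rps2, at 0.51. The array that stood apart was not the same: it was leukemia 1 for Rpl26, leukemia 3 for Rpl12 and leukemia 2 for Rps2. Rpl12 and Rpl26 were read by 1 probe set each.

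**Figure D4:**
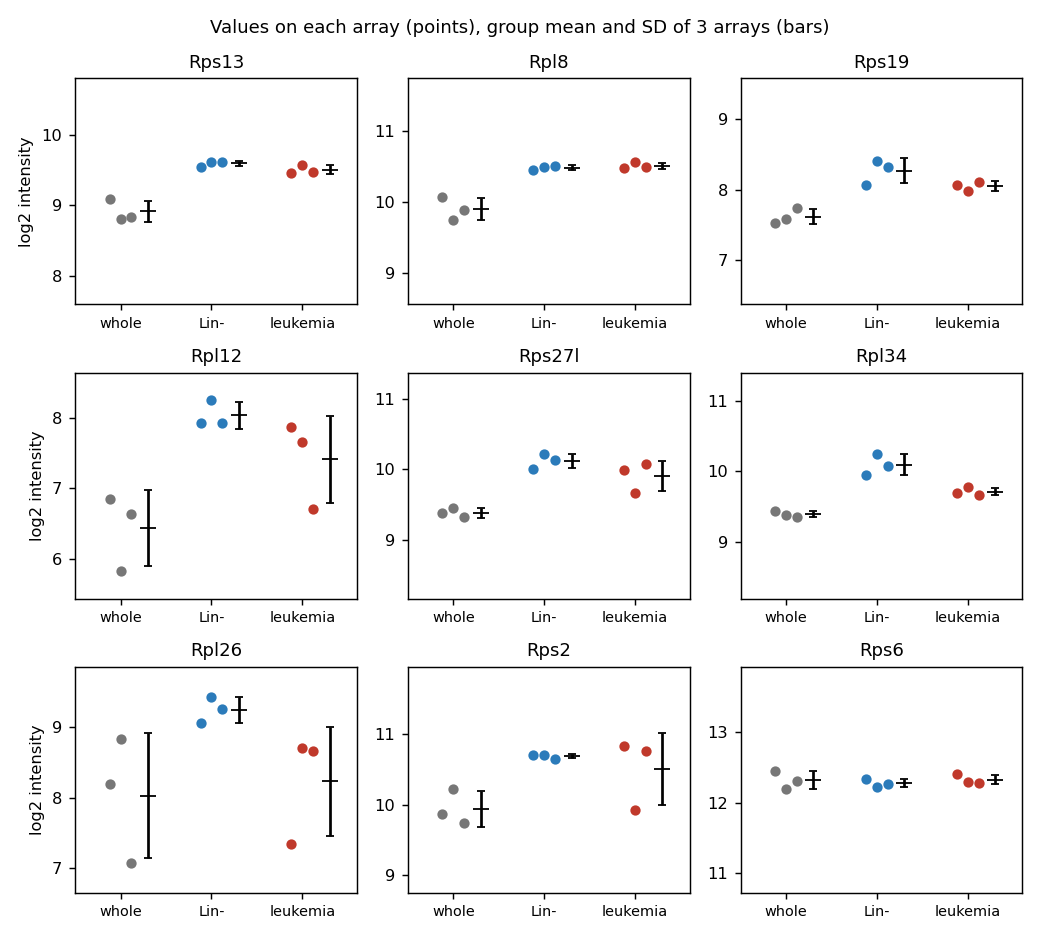
Log2 intensity of 9 members on each array (points) in whole marrow, lineage-negative (Lin-) marrow and ERG leukemia, with the group mean and SD of 3 arrays as bars; all panels span the same height. Rps13, Rpl8 and Rps19 show whole marrow below the other arrays, Rpl34 the leukemias between both wild type groups, Rpl12, Rpl26 and Rps2 1 leukemia apart from the others, and Rps6 no separation.

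The variants shared no single pattern, and none but Rps27l and Rpl7l1 was called higher in any comparison. Rpl7l1 was higher in lineage-negative than in whole marrow by 0.51 ± 0.09 (adjusted p 0.00287), with whole marrow at 8.58, 8.60 and 8.53. The striated muscle variant Rpl3l, at means of 4.22, 4.20 and 4.17, and the testis variants Rpl39l, at 4.64, 4.44 and 4.61, and Rpl10l, at 4.95, 5.0 and 5.05, lay below the median intensity in whole marrow, lineage-negative marrow and leukemia alike, where the array gives only a bound. Rps23rg1, a retrogene of Rps23, had a mean below the median intensity too, at 5.08, 5.10 and 4.85 in whole marrow and 4.73, 4.29 and 4.61 in lineage-negative marrow. Of its whole marrow arrays 2 lay just above that median of 5.06 and every other array below it. The fit called it lower in lineage-negative marrow (-0.47 ± 0.13, adjusted p 0.0193), but at this signal the array gives only a bound and the size is not read as a measured change. The call was lost without whole marrow 1, whole marrow 2 or lineage-negative 2, and with the wild type replicate number as a block. In the leukemias it stood at 4.59, 4.80 and 4.66 (-0.33 against whole marrow, adjusted p 0.101). Rpl32l and Rps4l, the latter a transcribed pseudogene in RefSeq, had means above the median intensity but were not called. Their leukemia minus whole marrow differences were 0.13 and 0.00. Rps4l had a mean of only 6.30, the lowest of the members above that median, and its other probe set lay at 4.79, below it.

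For 3 variants the common partner was measured as well, and the gap between the members of each pair was compared over arrays with an exact two-sided permutation test, 9 tests in all. With 3 arrays against 3, the smallest p this test can give is 0.1. No pair could therefore pass, and the shifts are given as values. The gap of Rps4l to Rps4x shifted by -0.34 on the log2 scale in the leukemias and by -0.47 in lineage-negative marrow, each against whole marrow (exact permutation p 0.1 for each, 0.45 adjusted over the 9). Rps4x itself was called higher in both, and Rps4l in neither. The gaps of Rpl7l1 to Rpl7 and of Rpl10l to Rpl10 shifted by -0.23 to 0.10, with exact permutation p of 0.4 to 0.7. The mean of Rpl10l lies below the median intensity, so its gap is only a bound. Rps4l had a low signal too, at a mean of 6.30, and its other probe set lay below the median intensity.

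Of the 39 members with more than 1 probe set, all probe sets had a positive leukemia minus whole marrow difference for 37, and they split for Rpl21 and Rps6. Against whole marrow, the lineage-negative differences were all positive for 34. The probe sets of 1 gene can read the gene and its processed copies, and no probe positions were at hand, so these cannot be told apart. With the mean of all probe sets in place of the brightest, 25 members were higher in the leukemias and 40 in lineage-negative marrow. With the dimmest probe set, an alternative chosen after the data were seen, 18 and 33 were.

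Members with and without the ETS letters were called. Of the 19 members with CCGGAAG in a promoter window, 8 were called higher in the leukemias than in whole marrow, and of the 31 without it 10 were, with median differences of 0.26 and 0.24. In lineage-negative marrow 9 of the 19 and 22 of the 31 were called higher, with medians of 0.28 and 0.40. Among the members whose stretches are printed above, Rps3a1 was higher in the leukemias by 0.37 ± 0.09 (adjusted p 0.0175), Rps10 by 0.30 ± 0.08 (adjusted p 0.0298) and Rpl19 by 0.26 ± 0.07 (adjusted p 0.0302). The calls of Rps3a1, Rps10 and Rpl19 were all lost under both other scalings and stayed under 9, 8 and 6 of 16 alternatives. For CTTTCC, 13 of the 25 members with it and 5 of the 25 without it were called higher in the leukemias, and 16 and 15 in lineage-negative marrow. For the E-box the leukemia counts were 4 of 5 with it and 14 of 45 without it, and for AGATAA 4 of 6 and 14 of 44. In lineage-negative marrow the counts were 5 of 5 and 26 of 45 for the E-box, and 4 of 6 and 27 of 44 for AGATAA. These counts are as deposited and are descriptions, with no test.

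Translation factors were higher in the leukemias as well. Of 25 measured translation factors and partners, 15 were higher in the leukemias than in whole marrow and none was lower, with a median of 0.37, beside 14.6% of all genes higher and 9.93% lower. After centring 10 were higher and 1 lower, beside 11.1% of all genes higher, and after cyclic loess the counts were the same, beside 10.9%. Larp1, which binds the messenger RNAs of ribosomal proteins, stood at 9.00, 8.81 and 8.82 in whole marrow and at 9.91, 9.99 and 9.61 in the leukemias, higher by 0.95 ± 0.11 (adjusted p 0.000904). The initiation factors Eif3m, at 0.85 ± 0.09 (adjusted p 0.000822), and Eif4b, at 0.64 ± 0.11 (adjusted p 0.00407), followed. In lineage-negative marrow 18 of the 25 were higher and 1, the intermediate filament gene Vim, was lower. Of all genes, 21.7% were higher there and 13% lower. After centring 13 of the 25 were higher and after cyclic loess 14, beside 16.8% and 16.3% of all genes. Eif4a2 and Vim were lower under both of these scalings. As deposited, the largest differences in lineage-negative marrow were those of Larp1, at 1.09 ± 0.11, and of Eef1d, an exchange subunit of elongation factor 1, at 1.06 ± 0.13. Between the leukemias and lineage-negative marrow none of the 25 was called either way, beside 8.69% of all genes.

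Of 25 measured ribosomal protein chaperones and late assembly factors, 17 were higher in the leukemias than in whole marrow and none was lower, with a median of 0.59, beside 14.6% and 9.93% of all genes. After 75th percentile centring 18 were higher, and after cyclic loess 14. Tsr1, a maturation factor of the small subunit, was higher by 1.35 ± 0.22 (adjusted p 0.00348), and Nob1, which makes the last cut of the small subunit's RNA, by 1.11 ± 0.15 (adjusted p 0.00169). In lineage-negative against whole marrow 22 of the 25 were higher and none lower, with a median of 0.82, beside 21.7% and 13% of all genes. There 21 were higher after centring and 20 after cyclic loess. Against lineage-negative marrow, 4 were lower in the leukemias and none was higher, beside 5.74% and 2.95% of all genes. These were Grwd1, a chaperone of Rpl3, Heatr3 and Rrs1, which act in the import and assembly of the Rpl5 and Rpl11 complex, and Efl1, which frees the large subunit of Eif6. The call of Heatr3 was lost under both other scalings. Grwd1 stood at 5.72, 5.64 and 5.72 in the leukemias, 6.29, 6.80 and 6.29 in lineage-negative marrow and 4.99, 4.78 and 4.82 in whole marrow. The leukemias lay between both and differed from lineage-negative marrow by -0.77 ± 0.14 (adjusted p 0.0128).

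Of 15 measured genes that control the output of ribosomal proteins, 7 were higher in the leukemias than in whole marrow, Rptor, Larp1, Eif4e, Myc, Tsc1, Tsc2 and Akt1s1, and Max was lower, beside 14.6% of all genes higher and 9.93% lower. Under either other scaling 5 were higher and 1 lower, as Tsc1 and Akt1s1 lost their calls. The genes include parts of the mTOR complex and its inhibitors, so the list holds genes of opposite action. In lineage-negative against whole marrow 10 of the 15 were higher and Max was lower, beside 21.7% and 13% of all genes. Under either other scaling 8 were higher there, and Max was again lower. Myc, a transcription factor that drives ribosome production, stood at 9.15, 9.14 and 9.15 in whole marrow, 10.82, 10.86 and 10.88 in lineage-negative marrow and 10.41, 10.83 and 10.44 in the leukemias. Every leukemia lay well above whole marrow, by 1.41 ± 0.11 (adjusted p 0.000422). Mtor, the kinase itself, differed by 0.10 ± 0.08 (adjusted p 0.482) from whole marrow and was lower than in lineage-negative marrow, with a difference of -0.32 ± 0.08 (adjusted p 0.0481), a call lost under both other scalings. Mycn, a relative of Myc, was also lower than in lineage-negative marrow, at -1.17 ± 0.12 (adjusted p 0.0014), and stayed called under both, with the leukemias at 4.01, 4.25 and 4.33, below the median intensity, where the size is only a bound. Fau, the 1 further ribosomal protein gene measured, which the symbol rule does not reach and whose small subunit protein is cut from a fusion, did not pass, at -0.09 ± 0.07 against whole marrow (adjusted p 0.407), but was called lower after cyclic loess, at -0.25.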

How the data were processed

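Bone marrow RNA was measured on 9 Affymetrix arrays, 3 per group, which limits the precision of every value. The deposited values are linear intensity values that the authors made with RMA in Partek, per the submitters' processing notes (robust multi-array averaging, a joint background correction, normalization and probe summary). Not given in the sources used here are versions, probe positions and genome build. Values were log2-transformed and not normalized again. Of 28853 probe sets, 21789 had 1 symbol in the platform annotation, 1621 had several and 5443 had none. Only those with 1 symbol were tested, and for 999 genes the probe set with the highest mean stood for the gene, which left 19938 genes. The 62 members came from 218 probe sets, and all were found in RefSeq by Entrez identifier. No dim gene was filtered out.

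The 3 comparisons came from 1 limma 3.58.1 model of the 9 arrays (R 4.3.3; lmFit, then contrasts.fit, then eBayes with no trend; degrees of freedom 6 residual, 2.62 prior). All p-values are two-sided, with Benjamini-Hochberg adjustment over all genes of a comparison and a threshold of 0.05. Differences are given ± their standard error, and SD is over 3 arrays. The script was tested on simulated data. Groups follow the sample titles. Leukemias were numbered 1 to 3 in accession order. In the main fit wild type numbers were not used to pair the groups, which came from different mice. The labels do not say whether any array is a technical repeat, and each pool averages 3 mice, so the p-values can rest on less than the spread from mouse to mouse. Alternatives were 75th percentile centring, cyclic loess, bright genes only, only the 2 groups compared, an intensity trend, the mean or the dimmest probe set of a gene, each array left out, and the replicate block.

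Members, gene lists, motifs and the rule for named genes were chosen with earlier results of these data known. The rule named, per comparison, the 5 most extreme called members on each side whose arrays did not overlap, all variants and partners, the stalk genes, Rpl5, Rps14, Rps19, Rpsa, Rps6, Rpl10, the 3 brightest and 3 dimmest members, the 3 with the largest SD among leukemias, and the 3 translation genes with the largest change. Other named genes were chosen after their values were seen. Plots used matplotlib 3.10.9 (Python 3.11.15).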

Additional observations from a re-analysis of the deposited data

Results flagged for a closer look

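Signal was present in probe sets that the comparisons did not use. There were 239 probe sets whose annotation gave several symbols, a ribosomal protein among them, in 53 different combinations. Such a probe set can read more than 1 gene or processed copy, so none is named here as a gene. In the leukemias against whole marrow, their median log2 difference was 0.218, and 231 of the 239 lay above 0. The 3 leukemia arrays lay above the 3 whole marrow arrays for 143 and below for none, beside 19.4% and 17.7% of all genes. In lineage-negative against whole marrow, the median was 0.318, and 231 lay above 0. The arrays lay apart and higher for 168 and apart and lower for 1, beside 26.6% and 23.4% of all genes. In the leukemias against lineage-negative marrow, the median was -0.07, with 60 above 0. There 2 lay apart and higher and 52 apart and lower, beside 11.6% and 16.3% of all genes. These counts are as deposited and were not repeated under the other scalings. Each set of values has the sign of the median over the 62 genes with a symbol of their own. Many of these probe sets share symbols, so they are not independent measurements, and no test was run on them.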

How the results depend on the processing

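The deposited scaling sets the counts of calls. Against whole marrow, 21 members were higher in the leukemias as deposited, 7 after 75th percentile centring and 6 after cyclic loess, with a median difference of 0.11 under loess. In lineage-negative marrow 37 were higher as deposited, 19 after centring and 17 after loess, with medians of 0.22 and 0.16. Called under both other scalings were 5 of the 21 and 15 of the 38 called either way. Leaving out 1 array at a time gave 14 to 21 higher and 0 to 1 lower members in the leukemias against whole marrow, with medians of 0.21 to 0.31, the 1 being Rps23rg1 without lineage-negative 2. It gave 23 to 40 higher and 0 to 1 lower in lineage-negative against whole marrow, with medians of 0.30 to 0.38, and 0 higher and 0 to 1 lower in the leukemias against lineage-negative marrow, with medians of -0.10 to -0.03. As deposited the 1 lower member was Rpl34. The count was 0 after centring and when only both groups were fitted, and without leukemia 1 the 1 lower member was Rpl30 instead. Rps23rg1, lower in lineage-negative marrow, left a count of 0 when bright genes alone were tested, since it is dim and was not tested there.

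With the wild type replicate number as a block, 33 members were higher and 0 lower in lineage-negative against whole marrow. Between same-numbered wild type arrays, the deviations from the group mean correlated over all genes at 0.31, -0.01 and -0.01. These values alone do not show whether the numbers pair the samples. No median over the 62 members and no called named gene turned its direction under the alternatives run, but the variants' median leukemia minus whole marrow difference went from 0.05 to -0.03 after centring and to -0.0051 after loess. Apart from what the alternatives' own construction shows, the causes were not tested. Signals near the median intensity give only bounds, and bright probe sets can understate differences.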
